A study of Xenopus laevis with 6 samples.

Results

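The genes described here are those of the lens and the photoreceptors in Xenopus laevis: crystallins, opsins and the proteins of phototransduction, retinoid carriers, disc membrane proteins and eye transcription factors. They were picked by a rule on the gene symbol, which used no measured value but was written with earlier results of these data known, and made up 166 of the 42638 rows of the gene count table. Most symbols end in .L or .S for the copy on the long or the short subgenome of this allotetraploid frog. The copies of 1 gene are called homeologs. The gene cryba2.S is placed on chromosome 9_10L against its suffix, and cryg1 has no suffix. RNA was compared between basal Xenobots and intact sibling embryos of the same age, all wild type and untreated. Basal Xenobots are self-moving tissue bodies that round up by themselves from ectoderm cut from the animal cap of an embryo at stage 9. Each of the 3 Xenobot samples pooled 50 Xenobots on day 7, reared in 0.75X MMR (a Ringer's solution), and each of the 3 embryo samples pooled 10 whole embryos at stage 35, reared in 0.1X MMR. Both were kept at 14 °C. Medium and group changed together, so their parts cannot be told apart. The pools are the replicates (n = 3 per group), and p-values measure the spread between pools.

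The vertebrate lens forms from surface ectoderm next to the optic vesicle, an outgrowth of the forebrain that becomes the retina. Its fibre cells fill with crystallins, the soluble proteins that give the lens its transparency and refractive power, and alpha crystallins also act as chaperones. In rods and cones, light isomerizes the retinal bound to an opsin. The opsin activates transducin, transducin activates the phosphodiesterase PDE6, cyclic GMP falls, and the cyclic nucleotide-gated (CNG) channel closes. Arrestins and the guanylate cyclase activators help to end the response, recoverin is a calcium sensor, and the retinoid cycle of the pigment epithelium renews the retinal. Transcription factors such as Pax6, Rax and Six3 act in the early eye field, and Crx and Nrl act in photoreceptors.

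The 6 libraries held 13597538 to 22225123 estimated counts. Levels are given as CPM, counts scaled to a common library size with TMM factors, on which 1 count was worth 0.0465 to 0.0840 CPM. Where all 3 Xenobot pools were at 0 counts, the fold was taken against 3 counts over the group (0.0628 CPM) and is a lower bound. Where they held counts, the ratio of summed counts is given with an exact 95% interval where counts were few. Floors and intervals cover counting error only. In pools of whole Xenobots or embryos, fewer cells of a type and less RNA per cell cannot be told apart.

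Almost all of these genes were much lower in Xenobots. Of the 166 genes, 120 passed the filter on low values (CPM above 0.6 in at least 3 libraries) and were tested with limma-voom, and 114 of them were lower in Xenobots with a log2 fold change below -2 and an adjusted p under 0.05. Over all 26752 tested genes 20.5% were called lower. No member was called higher (0 of 120), where 5.75% of all tested genes were, and limma-voom, edgeR and DESeq2 each gave 0 members higher at an unadjusted p under 0.05. The 6 tested members not called were pde6d.L, guca1al.S, opn6a.S, cryga.4.L, rax2.L and rax2.S. The filter bears on these counts. Of the 120 tested members, 110 exceeded 0.6 CPM in no Xenobot pool and so passed through the embryos alone, and all 110 were called lower. Of all 3733 tested genes that passed in this way, 94.88% were called lower, so the count of tested members by itself separates them little from other genes absent from Xenobots. Genes that passed in this way could also not be called higher, so the lack of higher calls bears only on the other tested members.

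The values without a filter are therefore given for all 166 genes. The mean was lower in Xenobots for 149 members and higher for 6, and 11 gamma crystallin genes had 0 counts in every library. A count of 0 in each of the 3 Xenobot pools was found for 77 of the 155 members with a count in any library (49.68%), against 8.23% of all such rows. Among genes that passed the filter through the embryos alone, it was found for 62 of 110 members, against 18.8% of all genes that passed in this way. Copies of 1 gamma crystallin family, crygdl, made up 40 of the 77 and 45 of the 155. They also made up 36 of the 62 and 41 of the 110. Reads that fit several crygdl copies were divided among them, so these shares count 1 family many times. A further 57 members had under 10 counts over the 3 Xenobot pools together. Only 21 reached 10 counts and 9 reached 30. The Xenobot pools held 1859 counts of all members, and 68.69% of these belonged to pde6d.L, cryba1.2.L and guca1al.S. The plot of Xenobot against embryo means shows the few genes that stood near equal levels.

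**Figure D1:**
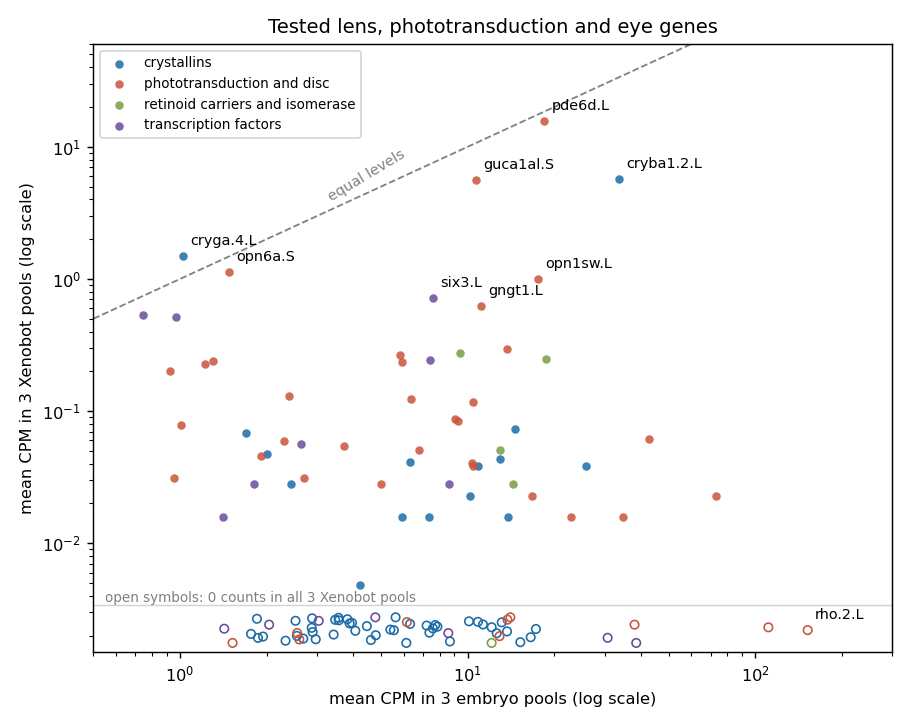
Mean CPM of the 120 tested members in 3 Xenobot pools (vertical, log scale) against the mean in 3 embryo pools (horizontal, log scale), 1 point per gene. The 62 open symbols under the line are genes with 0 counts in all Xenobot pools, set apart at an arbitrary height, and the dashed line marks equal levels, near which lie pde6d.L, guca1al.S, opn6a.S and cryga.4.L.

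Crystallin RNA was almost confined to the embryos, with the beta crystallin gene cryba1.2.L and the gamma crystallin gene cryga.4.L as exceptions. The summed level of the 87 crystallin genes was 12.2, 6.81 and 5.79 CPM in Xenobot pools 1, 2 and 3 and 491, 494 and 330 CPM in embryo pools 1, 2 and 3. The means were 8.26 ± 3.42 and 438.7 ± 93.9 CPM (SD, n = 3). Most of the Xenobot sum came from cryba1.2.L, and without this gene, a choice made after its values were seen, the means were 2.57 and 405 CPM. Of the 119 Xenobot counts left without cryba1.2.L, 67 were of cryga.4.L. Of the 59 tested crystallins 58 were lower, and cryga.4.L was not called.

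The 3 alpha crystallin genes, whose products also serve as chaperones outside the lens, did not pass the filter. Together cryaa.S, cryab.L and cryab.S had 12 counts in the Xenobot pools and 52 in the embryo pools. Alpha crystallins were thus near the detection limit in both groups.

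Of 10 beta crystallins 7 were tested, and 7 were lower. The beta crystallin gene cryba1.2.L (assembly Xenopus_laevis_v10.1, chromosome 2L, 32886728 to 32892245) had 129, 103 and 40 counts in Xenobot pools 1, 2 and 3, or 8.87, 4.84 and 3.36 CPM. In embryo pools 1, 2 and 3 it stood at 35.3, 42.8 and 22.4 CPM. The groups did not overlap, but each Xenobot pool held clear counts of this gene, with pool 1 the highest. Its limma log2 change was -2.59 (SE 0.35, adjusted p = 1.06e-04), from 5.69 ± 2.85 to 33.5 ± 10.4 CPM (SD, n = 3).

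Its homeolog cryba1.2.S (chromosome 2S, 5037514 to 5044468) had 1, 1 and 0 counts in the Xenobot pools. The embryo pools held 24.6, 35.7 and 17.3 CPM of it, and the limma log2 change was -8.52 (SE 0.83, adjusted p = 1.22e-05). The copies thus differed in Xenobots while both were plainly counted in embryos. The nearest annotated gene to cryba1.2.L is another beta crystallin gene, cryba1.L, 8421 bases away, which had a log2 fold change of -7.26. The beta crystallin gene crybb1.S had 0 counts in all Xenobot pools and 15.2, 20.0 and 10.6 CPM in the embryo pools, and was at least 239-fold lower. Its homeolog crybb1.L had 0, 1 and 1 counts in the Xenobot pools against 12.4, 14.7 and 11.8 CPM, a ratio of 307 (95% interval 84.7 to 2539). Except for cryba1.2.L, none of the tested beta crystallins had more than 3 counts over the Xenobot pools.

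Gamma crystallins, which are the crystallins of the lens fibre core, made up 74 of the 166 rows, and 51 of the 52 tested were lower. Their summed level was 2.54, 1.36 and 2.18 CPM in the Xenobot pools and 376, 344 and 248 CPM in the embryo pools. Most belong to the crygdl family of 45 genes. It lies in an array on chromosome 1L between 114306948 and 114744751 (29 genes in 437.8 kb) and another on chromosome 1S between 95457411 and 95623439 (16 genes). All 41 tested crygdl genes were lower, with embryo means of 1.77 to 17.3 CPM. Over all 3 Xenobot pools the 45 genes held 7 counts, against 17257 in the embryo pools, and 40 of the 45 were at 0 in every Xenobot pool. The arrays on both subgenomes were thus at or near the detection limit in Xenobots. The array on chromosome 1L also contains 13 tested genes known only by a locus number, and 13 of them were lower, with 1 count in the Xenobot pools and 5644 in the embryo pools.

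Within the family, crygdl.21.L had 0 counts in all Xenobot pools and 20.4, 18.3 and 13.1 CPM in the embryo pools, and was at least 274-fold lower. For crygdl.1.L the embryo pools held 19.5, 17.7 and 12.5 CPM and the bound was 263-fold. The highest Xenobot count of a crygdl gene was found for crygdl.9.S, with 2, 0 and 1 counts against 18.9, 14.3 and 10.5 CPM, a ratio of 232 (95% interval 79.1 to 1126). Embryo pool 1 was the highest and pool 3 the lowest for each of these 3 genes. All 45 crygdl genes had a part count (further than 0.005 from a whole number) in some pool, since reads that fit several copies were divided among them by estimation. The level of the family is therefore firmer than that of any copy. The 10 crygbl genes followed the same course, with 9 of 9 tested lower and 14 counts in Xenobots against 1799 in embryos.

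Among the cryga genes, on chromosomes 9_10L and 9_10S, cryga.4.L did not share this pattern, and most others were hardly counted in either group. Of the 18 genes, 11 had no count in any library, and only cryga.4.L passed the filter. It stood at 1.86, 0.940 and 1.68 CPM in Xenobot pools 1, 2 and 3 and at 0.608, 0.703 and 1.77 CPM in embryo pools 1, 2 and 3. The groups overlapped, since embryo pool 3 lay within the Xenobot range. The limma log2 change was 0.55 (SE 0.47, adjusted p = 0.322), and the gene was counted at a low level in both groups. The gene numbered cryga.4.S on the other subgenome had 0 counts in all 6 libraries. A pseudogene, LOC121398127, is annotated 136 bases from cryga.4.L, and no level is given for it. The cryga gene nearest to cryga.4.L, cryga.6.L, lies 10256 bases away and had 0 counts in all 6 libraries. On the same chromosome cryga.3.L and cryga.7.L, under the filter, had 0 counts in Xenobots and 36 and 51 in embryos.

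The phototransduction genes that the rule picked were counted in embryos at every step of the cascade, and most were nearly absent from Xenobots. Of the 56 genes from opsins to disc membrane proteins 41 were tested, and 38 were lower. The plot of summed levels by role gives all pools side by side.

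**Figure D2:**
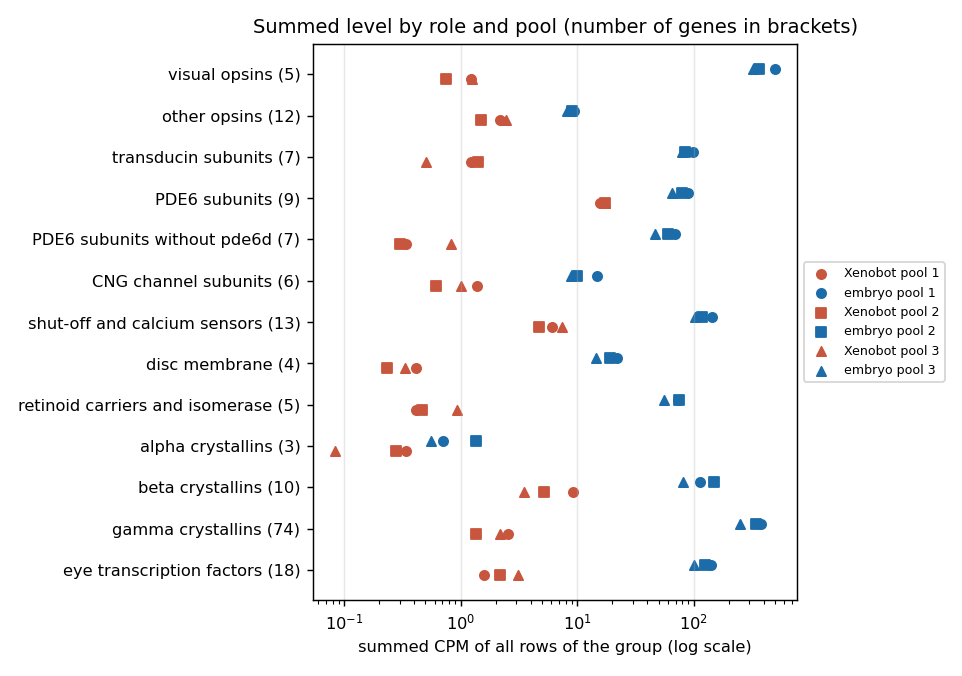
Summed CPM (log scale) of all genes of a role in each pool, red for Xenobots and blue for embryos, with the marker shape giving the pool number. The 2 groups lie apart in each role, most widely for the visual opsins (0.752 to 1.26 against 325 to 502 CPM), and the PDE6 subunits move to under 1 CPM in Xenobots once pde6d is left out.

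Rhodopsin, the rod opsin, was nearly without counts in Xenobots. Xenobot pools held 0 counts of rho.2.L (chromosome 4L, 131392925 to 131396439), which stood at 195.4, 132 and 129 CPM in embryo pools 1, 2 and 3. It was at least 2437-fold lower in Xenobots (limma adjusted p = 4.7e-07). The neighbouring copy rho.L (chromosome 4L, 131404895 to 131408777) also had 0 counts in all Xenobot pools, against 143.8, 99.5 and 90.0 CPM, and was at least 1777-fold lower. A single count of rho.S was found, in Xenobot pool 1, against 92.8, 65.9 and 60.1 CPM in the embryo pools, a ratio of 3498 (95% interval 628 to 138200). The 3 rhodopsin genes share reads, and together they gave 1 count in 150 pooled Xenobots.

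Cone opsins were lower as well, but 1 of them was counted in each Xenobot pool. The red-sensitive opsin gene opn1lw.L, also picked after its values were seen, had 2, 1 and 0 counts in the Xenobot pools and 51.1, 47.0 and 30.4 CPM in the embryo pools, a ratio of 679 (95% interval 232 to 3292). The short-wave opsin gene opn1sw.L, picked after its values were seen, had 15 counts in each of the 3 Xenobot pools. These amounted to 1.03, 0.705 and 1.26 CPM, against 19.1, 18.8 and 14.8 CPM in embryos, with a limma log2 change of -4.17 (SE 0.32, adjusted p = 3.20e-06). The groups lay far apart, and the ratio was 18.5 (95% interval 13.8 to 25.6). All 5 visual opsin genes were lower. A tRNA gene is annotated within the bounds of opn1sw.L. The gene calu.L lies 2376 bases away, at 37.7 CPM in Xenobots and 63.0 CPM in embryos, and its part in these counts was not tested.

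The other 12 opsins, which are mostly of classes found outside rods and cones, were counted at low levels in both groups, and 3 of the 4 tested were lower. Their summed level was 2.199, 1.503 and 2.43 CPM in the Xenobot pools and 9.35, 8.98 and 8.19 CPM in the embryo pools. The opsin gene opn6a.S stood at 1.10, 0.705 and 1.59 CPM in Xenobots and 1.54, 1.26 and 1.65 CPM in embryos. The groups overlapped, and the limma log2 change was -0.52 (SE 0.35, adjusted p = 0.22). Its homeolog opn6a.L had 0 counts in all Xenobot pools, 2.43, 3.07 and 2.17 CPM in the embryo pools, and was at least 40.3-fold lower. Melanopsin, a light sensor of retinal ganglion cells and of frog skin pigment cells, was lower for opn4.L at a limma log2 change of -3.69 (SE 0.65, adjusted p = 6.13e-04). Its level was low in both groups, with 3 counts in Xenobots and 62 in embryos.

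All 6 tested transducin genes, which are of alpha and gamma subunits, were lower. The symbol rule picked no beta subunit gene, and the beta subunit gene gnb3, given below, was higher. The rod alpha subunit gene gnat1.L had 0, 1 and 0 counts in the Xenobot pools against 37.6, 35.0 and 31.8 CPM in the embryo pools, a ratio of 1662 (95% interval 298 to 65673). Its homeolog gnat1.S had 0 counts in Xenobots and 16.4, 14.0 and 11.8 CPM in embryos, at least a 224-fold difference. The cone alpha subunit gene gnat2.S had 2, 7 and 5 counts in the Xenobot pools, against 16.2, 12.2 and 12.7 CPM in embryos. Its limma log2 change was -5.50 (SE 0.45, adjusted p = 3.98e-06). The rod gamma subunit gene gngt1.L, picked after its values were seen, had 13.9, 18 and 1 counts in Xenobot pools 1, 2 and 3. It stood at 11.7, 10.8 and 11.01 CPM in embryos, with a limma log2 change of -4.44 (SE 0.53, adjusted p = 4.39e-05). Xenobot pool 3 held far less of it than pools 1 and 2, while the embryo pools were close to each other.

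The PDE6 genes divided by subunit. All 7 tested genes of the catalytic (pde6a, pde6b, pde6c) and inhibitory (pde6g of rods, pde6h of cones) subunits were lower, at a summed 0.344, 0.304 and 0.826 CPM in Xenobots and 69.7, 60.4 and 46.7 CPM in embryos. For the cone inhibitory subunit, pde6h.L had 1, 0 and 0 counts in Xenobots and 21.2, 16.4 and 12.5 CPM in embryos, and pde6h.S had 0 counts against 15.3, 13.2 and 10.2 CPM. The pde6h.L ratio was 797 (95% interval 143 to 31500), and pde6h.S was at least 205-fold lower.

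The delta subunit gene pde6d.L (chromosome 5L, 107570723 to 107613852) stood apart from them. Its product binds prenylated proteins and is used in many tissues, not only in photoreceptors. It stood at 14.4, 16.3 and 16.2 CPM in Xenobots and 18.9, 18.7 and 17.8 CPM in embryos. Every Xenobot pool was lower than every embryo pool, but the log2 fold change of -0.24 (SE 0.11) did not pass (limma adjusted p = 0.0775). Of the 801 Xenobot counts of PDE6 genes, 749 were of pde6d.L. The gene cops7b.L lies 81 bases from pde6d.L, at 30.5 CPM in Xenobots and 21.4 CPM in embryos, and its part in these counts was not tested.

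All tested CNG channel and disc membrane genes were called lower, 2 of them not under every setting. The cone channel gene cnga3.L, under the filter, had 13 counts in Xenobots and 40 in embryos. Among the 5 tested channel genes the median log2 change was -4.51, and the rod channel gene cnga1.S had 1, 2 and 0 counts in Xenobots against 5.13, 3.25 and 2.74 CPM in embryos. Its homeolog cnga1.L was called at a limma log2 change of -2.31 (SE 0.44, adjusted p = 0.00111) and lost the call in the deposited values adjusted for surrogate variables, at -1.14. Peripherin, which shapes the rim of the disc, was counted as prph2.L at 0.0687, 0.0470 and 0 CPM in Xenobots and 12.7, 10.4 and 8.09 CPM in embryos, a ratio of 248 (95% interval 68.4 to 2054). The 4 disc genes were lower, but prph2l.S was near the threshold at -2.22, and was at -1.74 without Xenobot pool 2 and at -1.43 in the adjusted values. These 2 genes were the named members whose call depended on the setting.

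Among the genes of arrestins and calcium sensors (recoverins and guanylate cyclase activators), 8 of 9 tested were lower. Cone arrestin, arr3.L (chromosome 8L, 34391623 to 34410228), had 0 counts in all Xenobot pools and 45.7, 36.5 and 32.0 CPM in embryo pools 1, 2 and 3. It was at least 607-fold lower (limma adjusted p = 5.09e-07). Rod arrestin, sag.L, had 0, 1 and 0 counts against 27.3, 22.6 and 18.5 CPM, a ratio of 1088 (95% interval 195 to 43024). Its homeolog sag.S had 4, 2 and 0 counts, against 7.99, 5.84 and 5.21 CPM in embryos, a ratio of 50.7 (95% interval 23.1 to 139). In Xenobots arr3.L and sag.L were thus at the detection limit, and sag.S was slightly above it. The calcium sensor recoverin was at 0 counts in Xenobots for rcvrn.2.L and at 14.8, 14.3 and 12.2 CPM in embryos, at least 219-fold lower.

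The exception was guca1al.S (chromosome 3S, 62435204 to 62448431), annotated as related to guanylate cyclase activator 1A. It had 80, 95 and 81 counts in the Xenobot pools, or 5.50, 4.46 and 6.80 CPM, and stood at 13.1, 8.71 and 10.3 CPM in the embryo pools. The groups did not overlap, and the limma log2 change was -1.0 (SE 0.21, adjusted p = 0.00222), which passes the p threshold but not the fold threshold. It was the only such member, since 115 members had an adjusted p under 0.05 without the fold threshold. Its homeolog guca1al.L was much lower, at 0.275, 0.0940 and 0.336 CPM in Xenobots and 6.83, 6.49 and 4.42 CPM in embryos, with a limma log2 change of -4.67 (SE 0.53, adjusted p = 3.04e-05). The gene next to guca1al.S is golgb1.S, 3054 bases away, at 276 CPM in Xenobots and 111 CPM in embryos, and its part in these counts was not tested.

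Grouped by cell class, the 18 rod genes summed to 2.13, 1.67 and 1.41 CPM in the Xenobot pools and 590.5, 436 and 398.5 CPM in the embryo pools. The 12 cone genes summed to 2.34, 1.55 and 2.43 CPM in Xenobots and 180, 152 and 120 CPM in embryos. The Xenobot level was 0.298 to 0.449% of the embryo mean for rod genes and 1.03 to 1.62% for cone genes, so that the ranges over pools did not overlap. A few genes carried these residues. Of the 96 cone counts in Xenobots 45 were of opn1sw.L, and of the 83.3 rod counts 32.9 were of gngt1.L. The difference between rod and cone genes is a description, with no test.

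All 5 retinoid genes, which carry or isomerize the retinal of the visual cycle, were lower. The isomerase gene rpe65.L of the pigment epithelium had 0, 0 and 1 counts in Xenobots and 14.1, 17.1 and 11.8 CPM in embryos, a ratio of 679 (95% interval 122 to 26828). Its homeolog rpe65.S had 3, 6 and 4 counts, against 8.36, 10.8 and 9.15 CPM, with a limma log2 change of -4.96 (SE 0.37, adjusted p = 2.68e-06). The retinaldehyde-binding protein of pigment epithelium and Müller glia behaved in a like manner, with a log2 fold change of -7.58 for rlbp1.L and -6.22 for rlbp1.S. The carrier between photoreceptors and pigment epithelium, rbp3.L, had 0 counts in all Xenobot pools and was at least 192-fold lower. The 5 genes together gave 27 counts in Xenobots and 4132 in embryos.

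Eye transcription factors were lower for 13 of 15 tested genes. The photoreceptor factor Crx had 0 counts in all Xenobot pools for both copies. In embryo pools 1, 2 and 3, crx.L stood at 47.5, 37.5 and 30.7 CPM and crx.S at 36.2, 29.2 and 26.7 CPM, which gives bounds of 614-fold and 489-fold. The eye field gene pax6.L had 0 counts in Xenobots and 9.15, 9.70 and 6.84 CPM in embryos, which puts it at least 135-fold lower. Its homeolog pax6.S had 1 count, in Xenobot pool 3, and 9.32, 9.12 and 7.39 CPM in embryos. Both copies of rax, of the eye field, and of vsx1, of retinal bipolar cells, were at 0 in Xenobots too. The rod factor nrl had 1 count of nrl.L and 2 of nrl.S there.

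Some factors were countable in Xenobots. The forebrain and eye field gene six3.L, picked after its values were seen, stood at 0.412, 0.590 and 1.15 CPM in Xenobots and 8.76, 7.39 and 6.63 CPM in embryos, with a limma log2 change of -3.49 (SE 0.37, adjusted p = 1.92e-05). Its homeolog six3.S followed at -5.45. The rax relatives rax2.L and rax2.S were low in both groups, at means of 0.513 and 0.533 CPM in Xenobots and 0.965 and 0.745 CPM in embryos. Their log2 fold changes of -0.85 and -0.45 did not pass (limma adjusted p = 0.0894 and 0.355). The tested factors that the symbol rule picked were thus lower, except rax2, which was not called. Of 38 tested factors on another eye list, given below, 12 were not called.

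In most homeolog pairs both copies were lower. Leaving out the gamma crystallin arrays, whose numbers do not pair copies, 30 pairs had a tested copy and 23 had both tested. Both copies were lower in 20 of the 23, neither in 1 (rax2), and 1 copy alone in 2 (guca1al and opn6a). Since 114 of the 120 tested members were lower, this count does not show that copies moved together. The share over all homeolog pairs of the genome was not counted. The share of the .L copy in the counts of a pair moved from 56.54% in embryos to 99.27% in Xenobots for cryba1.2. It moved from 78.16 to 14.29% for sag, from 60.27 to 7.14% for rpe65 and from 26.23 to 78.57% for cnga1, each on 14 or fewer Xenobot counts of the pair. For guca1al it moved from 35.22 to 3.76% and for opn6a from 62.87 to 0%. The difference in log2(.L/.S), with 0.5 added to each count, was 5.91 for cryba1.2, -3.67 for guca1al and -5.86 for opn6a. The exact two-sided permutation p was 0.1 for each of these 3, which is the smallest that 3 pools against 3 allow. It was reached by 18 of the 30 pairs, and the adjusted p over the pairs was 0.167. Among the 18 are crx and vsx1, with 0 Xenobot counts of both copies, whose Xenobot ratio is set by the added 0.5 alone. Reaching this p therefore does not show that the share of a copy moved.

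**Figure D3:**
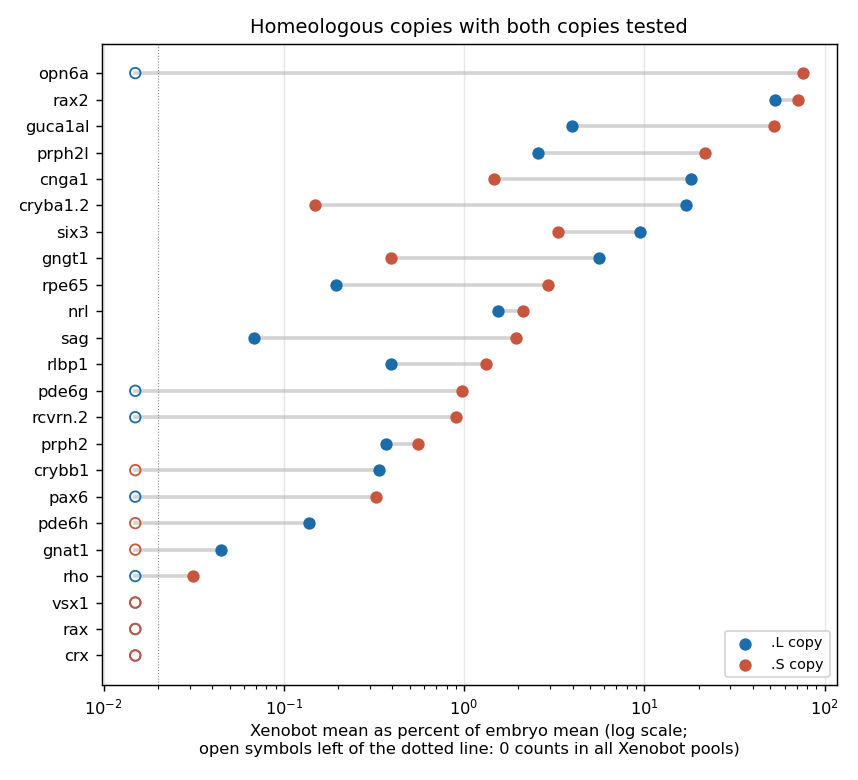
Xenobot mean as a percentage of the embryo mean (log scale) for the .L copy (blue) and the .S copy (red) of the 23 pairs with both copies tested. Open symbols left of the dotted line are copies with 0 counts in all Xenobot pools, and the widest gaps between countable copies are in cryba1.2 (17.0 against 0.149%) and sag (0.0687 against 1.94%).

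The embryo pools also differed among themselves for these genes. Of the 41 tested phototransduction and disc genes, 34 were highest in embryo pool 1, or 82.93%, against 35.43% of all tested genes. The median gene of this group stood at 119.1, 96.6 and 84.1% of its own embryo mean in pools 1, 2 and 3. Beta crystallins instead were highest in embryo pool 2 for 6 of 7 genes, with medians of 99.9, 129.1 and 69.2%. Pool 3 was the lowest in the median of each role. Scaled to total counts, embryo pool 1 was the highest for 39 of 41 phototransduction and disc genes, but also for 21544 of all 26752 tested genes, and embryo pool 2 was the highest for 4 of 7 beta crystallins.

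**Figure D4:**
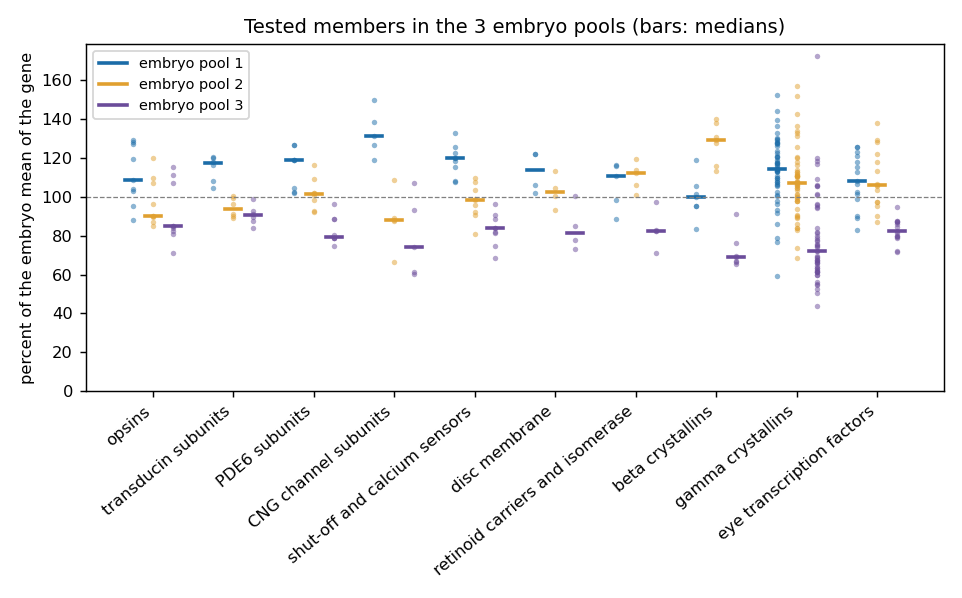
Level of each tested member in embryo pools 1, 2 and 3 as a percentage of its own embryo mean, by role, 1 point per gene, with bars at the medians. Pool 1 leads for most phototransduction roles, pool 2 leads for beta crystallins (median 129.1%, on CPM scaled with TMM factors) and pool 3 lies below 100% in the median of each role.

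Other genes of the eye, taken from lists that the symbol rule did not use, were mostly lower too. Of the 102 tested genes on the 4 lists 76 were lower (74.51%) and 2 higher, against 20.5% lower and 5.75% higher over all tested genes. The filter bears on these counts too, and how many list genes passed it through the embryos alone was not counted. The median log2 fold change of the list genes was -4.54 (-4.46 with genes at 0 in Xenobots set to their bounds), against -0.07 for all tested genes. The tested members had a median of -6.80 (-6.21 with bounds), and the difference between the sets was not tested. Lens genes were lower for 11 of 12, among them the fibre cell membrane proteins mip.L (at least 166-fold) and lim2.L (log2 fold change -7.56) and the lens transcription factor pitx3.L (at least 84.4-fold). Photoreceptor genes were lower for 30 of 36, among them the opsin kinases grk1.L (at least 83.7-fold) and grk7.L (at least 76.8-fold) and the photoreceptor cadherin cdhr1.S (at least 103-fold). Pigment epithelium and retinoid genes were lower for 9 of 16. The transthyretin genes ttr.S and ttr.L, which the embryonic liver also uses, were lower by 11.08 and 10.93 on the log2 scale. The retinoic acid-binding protein gene crabp1.S was lower by 7.43. Further transcription factors on the eye lists were lower for 26 of 38 and not called for 12. Among the lower ones, named for the size of their change, were onecut1.L (at least 531-fold) and neurod1.S (at least 284-fold). Those not called included both copies of otx2, with log2 fold changes of -0.39 (.L) and -0.35 (.S). They also included both copies of tbx3, which were higher in Xenobots at 1.18 (.L) and 0.60 (.S). The tbx3 copies passed the p threshold but not the fold threshold (limma adjusted p = 3.37e-05 and 0.00221). In pools of whole embryos, counts of these factors from the eye and from other tissues cannot be told apart.

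The 2 genes called higher were both copies of gnb3, a G protein beta subunit of cones in mammals. In Xenobot pools 1, 2 and 3 gnb3.S stood at 167, 154 and 146 CPM, against 35.5, 32.8 and 38.1 CPM in embryos. The limma log2 change was 2.14 (SE 0.10, adjusted p = 4.36e-07). For gnb3.L it was 2.06 (SE 0.11, limma adjusted p = 5.01e-07). Both copies were higher in every Xenobot pool than in any embryo pool. They lay close to the fold threshold, and with scaling to total counts gnb3.S and gnb3.L stood at 1.99 and 1.91 and were not called. In the deposited adjusted values gnb3.L was not called either (1.87), and gja3.L, a lens gap junction gene with 11 counts in Xenobots and 6 in embryos, was called higher instead (2.30). Without Xenobot pool 1, gnb3.L was not called (1.99).

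Marker lists of other tissues, summed over their genes, placed these levels among those of the whole construct. Over all tested genes 20.5% were called lower and 5.75% higher, and the filter bears on the counts of these lists too. Epidermal markers were at 394 to 420% of the embryo mean in the Xenobot pools, with 17 of 33 tested genes higher and 2 lower. Of their mean sum, itln1.L alone gave 4657 of 9796 CPM in Xenobots and 763 of 2424 CPM in embryos. Placode markers, of the ectoderm that also gives rise to the lens, were at 105 to 129% (64.0 to 72.8% without dlx3), with 2 of 23 higher (dlx3.S and dlx3.L, log2 fold changes 3.03 and 2.51) and 11 lower, pax8.L with 0 counts in Xenobots among them. Neuronal markers were at 13.1 to 14.0% with 25 of 26 lower. Most of this sum was syt1.L, a synaptotagmin gene that was not lower (77.8 against 21.5 CPM), and the other 25 genes were at 2.20 to 2.45%. These alternatives were chosen after seeing the data. Pigment cell markers were at 6.44 to 8.67% with 8 of 12 lower. Skeletal muscle markers were at 1.08, 2.24 and 0.264% in Xenobot pools 1, 2 and 3, with 17 of 17 lower. Rod genes and crystallins without cryba1.2.L lay at or under 0.814% in each Xenobot pool, and all crystallins were at 1.32 to 2.77%. The other eye lists stood higher in sum. Lens genes were at 19.2 to 21.4%, pigment epithelium and retinoid genes at 11.3 to 12.6% and further transcription factors at 38.5 to 46.9%. Photoreceptor genes were at 136 to 161%. Most of their mean sum of 430.5 CPM in Xenobots was gnb3.L (257 CPM) and gnb3.S (156 CPM).

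**Figure D5:**
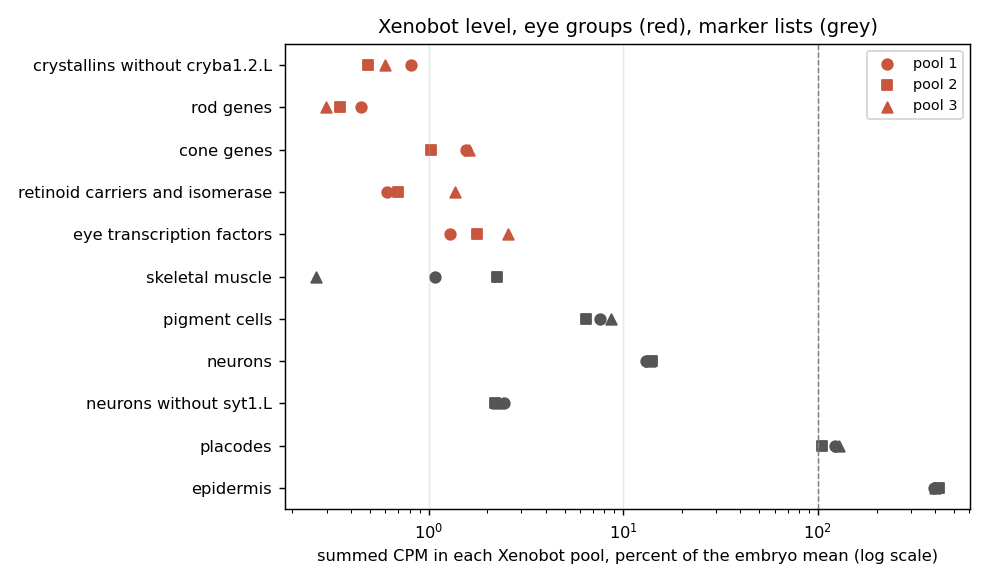
Summed CPM in each Xenobot pool as a percentage of the embryo mean (log scale) for eye gene groups (red) and for marker lists of other tissues (grey), with the marker shape giving the pool. Rod genes and crystallins without cryba1.2.L lie under 1%, neuronal markers at 13.1 to 14.0% (2.20 to 2.45% without syt1.L) and epidermal markers at 394 to 420%. The other eye lists are not shown.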

How the data were processed

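RNA was sequenced as stranded, rRNA-depleted total RNA from 3 Xenobot and 3 embryo pools. The authors used fastp for trimming, STAR for alignment to the assembly Xenopus_laevis_v10.1 and RSEM for gene-level estimates, and deposited these estimated counts, many of which are not whole. RSEM divides reads that fit several copies, which touches homeologs and the gamma crystallin arrays. The authors also deposited log2 CPM values, from voom with TMM factors and with surrogate-variable effects removed, which were used as an alternative only. Groups and pool numbers came from the sample titles.

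Genes with CPM above 0.6 in at least 3 libraries were kept. After TMM scaling (edgeR 4.0.16), voom weights and the limma test (limma 3.58.1, R 4.3.3) were applied, two-sided, with group as the only term and Benjamini-Hochberg adjustment over all 26752 genes. Calls needed a log2 fold change beyond 2 and an adjusted p under 0.05. The script was tested on simulated data. The depth of Xenobot pools 1, 2 and 3 was 15599300, 20325075 and 13597538 estimated counts, and that of embryo pools 1, 2 and 3 was 17533207, 18850128 and 22225123. Positions came from the RefSeq gene table of the same assembly, in which all 166 genes were found. CPM are not scaled by transcript length, so sums and shares over genes describe counts and not numbers of transcripts.

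The genes and the lists were chosen with earlier results of these data known. Values per pool were given for the 3 tested genes of each role with the highest embryo mean, for tested genes not called lower with at least 1 CPM in Xenobots, and for their homeologs. Of each list, the 3 tested genes with the largest change and those called higher could be named. The genes otx2, tbx3, tdrd7, prdm1 and itln1 were added after their values were seen. Alternatives were edgeR's quasi-likelihood test and DESeq2 1.42.0 on rounded counts, RLE and total-count scaling, no filter, CPM above 1, a replicate block, homeologs summed, the adjusted values as deposited and each pool left out in turn.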

Additional observations from a re-analysis of the deposited data

How the results depend on the processing

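The members called lower numbered 114 of 120 under edgeR, DESeq2, RLE and total-count scaling and the replicate block, 132 of 155 with no filter, 107 of 111 at CPM above 1, 112 of 122 in the deposited adjusted values and 80 of 85 with homeologs summed, a setting with fewer genes by construction. Leaving out 1 pool at a time gave 113 to 114. The members called higher were 0 under each of these settings. Of 600 refits of 43 named members 597 kept their direction and their side of the thresholds, and the other 3 kept the direction only (cnga1.L and prph2l.S, given in the report). The other eye genes called lower were 50 of 68 with homeologs summed, and those called higher were 0 with total-count scaling, 1 with homeologs summed and 1 to 2 with each pool left out. The summed crystallin level in Xenobots was 2.57 CPM without cryba1.2.L, an alternative added after seeing the data, as was CPM above 1 for the named genes. Pools of the same number deviated together weakly at most, with correlations of 0.0568, 0.0531 and 0.0105 for numbers 1, 2 and 3. Pools of unlike number had correlations of -0.0712 to 0.0214. The replicate block changed no call of these genes. At this depth, genes with 0 counts in Xenobots are limited to 0.0628 CPM over the group, by counting error only.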
